A study of Rattus norvegicus with 12 samples.

Results

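The miRNA genes Mir204 and Mir211 are paralogs, and each gives a 5p and a 3p strand. All small RNA names that matched either gene with an arm suffix were taken, which gave 4 of the 685 miRNA names measured: rno-miR-204-5p, rno-miR-204-3p, rno-miR-211-5p and rno-miR-211-3p. They were followed in 12 small RNA libraries of cultured rat cortical neurons, in which the double-stranded RNA-binding protein Staufen2 or the single-stranded RNA-binding protein Pumilio 2 had been targeted. The neurons came from Sprague Dawley embryos at day 17, were plated at 100000 cells per square centimetre, received lentivirus on day 10 in vitro and were lysed on day 14. All 3 groups thus carried a lentivirus with a short hairpin RNA (shRNA): non-targeting in shNTC, against Stau2 in shStau2 and against Pum2 in shPum2, with 4 libraries each numbered 1 to 4. The shPum2 group was an additional control for changes that an shRNA brings by itself. Small RNA counts hold no mRNA of either target, and the strength of the depletion was not analysed here. The labels call the 4 libraries of a group biological replicates and do not say what a replicate number stands for.

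A miRNA gene is transcribed as a hairpin, which the enzymes Drosha and Dicer cut to a duplex of 2 strands. One strand is usually kept in an Argonaute protein as the guide and the other is mostly degraded, and the guide finds its target mRNAs mainly through the seed, bases 2 to 8 from its 5′ end. In mammals miR-204 is known for its abundance in the choroid plexus epithelium, which makes cerebrospinal fluid, and in the retinal pigment epithelium. The relative miR-211 is known from pigment cells. The host genes are the ion channel genes Trpm3 for Mir204 and Trpm1 for Mir211: in the table of assembly GRCr8 each miRNA gene lies within the span of its host and on the same strand.

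The mature sequences are shown 5′ to 3′ because what tells the 4 strands apart decides how far their counts can be read. The capitals mark the seed, and the sequences are those of RefSeq on GRCr8.
miR-204-5p: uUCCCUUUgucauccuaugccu
miR-211-5p: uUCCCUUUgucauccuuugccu
miR-204-3p: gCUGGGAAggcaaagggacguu
miR-211-3p: gGCAAGGAcagcaaaggggg
The 5p strands of the paralogs share the seed UCCCUUU and differ at 1 of 22 bases, the substitution A17U, with positions counted from 1 at the 5′ end, the miR-204-5p base first and the miR-211-5p base last. Among the 613 of 685 miRNA names for which RefSeq gave a mature sequence, no other name had that seed. The 3p strands have different seeds, CUGGGAA and GCAAGGA, and no other name among the 613 had either of them. Their longest common run is GCAAAGGG, 8 bases that start at position 10 of miR-204-3p and at position 11 of miR-211-3p. The reverse complement of the 5p seed, AAAGGGA, occurs in miR-204-3p and not in miR-211-3p.

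The hairpins show where the strands sit, with the 5p strand first and the 3p strand second in capitals. Mir204 lies at chr1:229743461-229743570 and Mir211 at chr1:127189328-127189433, both on the plus strand of GRCr8. The counts were made on Rnor 6.0, and no coordinate was carried between the builds.
Mir204: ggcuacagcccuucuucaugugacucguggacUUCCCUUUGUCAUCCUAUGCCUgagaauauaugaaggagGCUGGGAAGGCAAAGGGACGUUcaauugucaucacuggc
Mir211: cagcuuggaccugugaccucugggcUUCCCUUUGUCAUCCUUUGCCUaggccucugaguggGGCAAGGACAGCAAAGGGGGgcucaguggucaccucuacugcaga

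The libraries held between 3836349 and 5415763 counts each, of which names annotated as Piwi-interacting RNAs took 0.684 to 0.989%. The totals of the groups did not differ detectably (exact permutation p = 0.629 to 0.829, two-sided, 3 comparisons, adjusted p = 0.829 for each, smallest possible p 0.0286). A filter on low counts left 628 miRNA names, and all 4 strands passed it. Levels are counts per 1000000 miRNA counts of a library (CPM) after trimmed mean of M-values (TMM) scaling, so they are shares of a library and not amounts per cell. The 10 neuronal marker miRNAs, led by miR-9a-5p and miR-128-3p, summed to between 293813 and 358359 CPM in a library. Libraries with the same replicate number deviated together from their group means: r across miRNAs was 0.36 to 0.57 in the 12 same-number pairs and -0.41 to 0.14 in the 36 other pairs. The numbers were therefore taken to pair the libraries, and values with the replicate number as a block are given where they change a call.

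By mean level over the 12 libraries, miR-204-5p ranked 58 of 685 miRNA names, miR-211-3p 360, miR-204-3p 471 and miR-211-5p 503. One strand of one gene therefore held nearly all counts of the 4: miR-204-5p was counted 82934 times over all libraries, miR-211-3p 1235 times, miR-204-3p 416 times and miR-211-5p 327 times. Ligation and amplification in small RNA libraries favour some sequences over others, so the order between strands holds for these counts and was not calibrated.

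The guide strand miR-204-5p stood at 1465, 1959, 1238 and 1284 CPM in shNTC replicates 1 to 4. In shStau2 it stood at 1404, 2386, 1573 and 1344 CPM, and in shPum2 at 1294, 1893, 1368 and 1273 CPM. In each group replicate 2 was the highest library, and the 3 groups overlapped. The shNTC libraries averaged 1486 ± 330.0 CPM, the shStau2 libraries 1677 ± 483 CPM and the shPum2 libraries 1457 ± 293 CPM (SD, n = 4).

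The partner strand miR-204-3p stood at 4.73, 6.92, 4.70 and 7.13 CPM in shNTC, at 8.17, 16.0, 6.47 and 9.35 CPM in shStau2 and at 7.40, 10.4, 6.44 and 6.27 CPM in shPum2, in the order of the replicate numbers. Each shStau2 library lay above the shNTC and the shPum2 library of its own number, although the groups overlapped. It averaged 5.87 ± 1.33 CPM under shNTC, 10.00 ± 4.17 CPM under shStau2 and 7.63 ± 1.92 CPM under shPum2 (SD, n = 4). These levels rest on 24 to 69 counts a library. The highest, in shStau2 replicate 2, was 69 counts with an exact 95% Poisson interval of 53.7 to 87.3, and the lowest, 24 counts, had one of 15.4 to 35.7. Intervals from counts cover counting error only.

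The most frequent strand of Mir211 was miR-211-3p, with 23.6, 24.9, 17.2 and 16.5 CPM in shNTC, 27.0, 31.8, 22.0 and 26.4 CPM in shStau2 and 24.7, 25.5, 13.3 and 22.7 CPM in shPum2. Again each shStau2 library lay above both control libraries of its number while the groups overlapped. The means were 20.6 ± 4.29, 26.8 ± 4.00 and 21.6 ± 5.64 CPM (SD, n = 4), from 64 to 137 counts a library.

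The seed partner of miR-204-5p, miR-211-5p, stood at 4.34, 8.22, 7.64 and 6.11 CPM in shNTC, at 6.35, 4.64, 7.55 and 5.52 CPM in shStau2 and at 6.47, 5.20, 6.02 and 4.32 CPM in shPum2. No group stood apart, with means of 6.58 ± 1.74, 6.01 ± 1.24 and 5.50 ± 0.947 CPM (SD, n = 4) from 20 to 39 counts a library. Its values were highest in replicate 2 in shNTC and lowest in replicate 2 in shStau2. With 1 base between the 5p strands, miscalled reads of miR-204-5p could be counted under miR-211-5p. The name miR-211-5p took 0.407 ± 0.114% of the counts of the 2 strands together (SD over 12 libraries). That share ran from 0.194% in shStau2 replicate 2 (20 of 10308 counts, exact 95% binomial interval 0.119 to 0.299%) to 0.614% in shNTC replicate 3 (39 of 6356 counts, 0.437 to 0.838%). How much of it is misassigned was not tested.

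**Figure D1:**
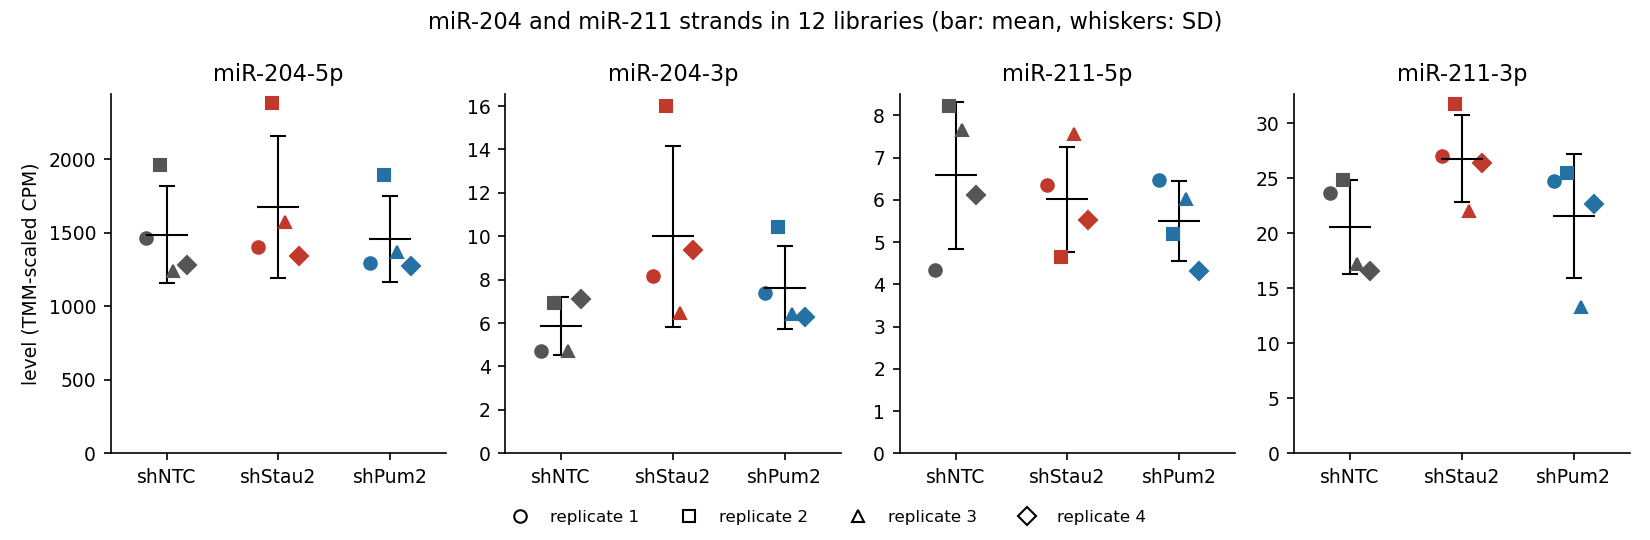
Levels of the 4 strands (TMM-scaled CPM, each panel with its own axis from 0) in each library, by group, with markers for the replicate number, the mean as a bar and the SD as whiskers. The squares of replicate 2 lie highest in every group for miR-204-5p and miR-211-3p, and miR-204-5p lies at 1238 CPM or more while the other strands stay below 32 CPM.

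The paralogs differed in which strand dominated. Of the miR-204 counts, the 5p strand took 99.5 ± 0.120% (SD over 12 libraries), from 99.3% in shStau2 replicate 4 (exact 95% binomial interval 99.1 to 99.5%) to 99.7% in shNTC replicate 1 (99.5 to 99.8%). Of the miR-211 counts, the 3p strand took 78.5 ± 6.21%, from 68.8% in shPum2 replicate 3 (58.4 to 78.0%) to 87.3% in shStau2 replicate 2 (81.0 to 92.0%). The dominant strand was thus the 5p strand of miR-204 and the 3p strand of miR-211 in 12 of 12 libraries. If reads of miR-204-5p were counted as miR-211-5p, the 3p share of miR-211 given here is too low, not too high. On the log2 scale, with 0.5 added to each count, the ratio of 5p to 3p averaged 7.65 ± 0.36 for miR-204 and -1.90 ± 0.53 for miR-211 (SD, n = 12).

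Other miRNAs give these shares a scale. Among 198 miRNAs whose strands both passed the filter and together reached a mean of 10 CPM, 109 had more 5p than 3p counts and 89 had more 3p than 5p counts. A higher 5p share than that of miR-204 was found for 11 of the 198, and a lower one than that of miR-211 for 71.

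The strand ratio of miR-204 did not pass a test between groups. The exact permutation test ignores the pairing by number, and with 4 libraries a group the smallest p that it can give is 0.0286. After adjustment over the 12 ratio tests made, a shift of a single ratio could therefore not pass at 0.05. The adjusted p-values of the ratios thus do not show that a ratio stayed the same. With 0.5 added to each count, the 5p count in shNTC was 303, 279, 258 and 177 times the 3p count. On the same scale it was 170, 148, 239 and 142 times in shStau2, and 172, 180, 209 and 200 times in shPum2. The shStau2 ratio was below the shNTC ratio in 4 of 4 pairs of the same number, with means of 7.42 ± 0.34 and 7.96 ± 0.34 on the log2 scale (SD, n = 4). The difference of -0.55 had an exact permutation p = 0.0571 (two-sided, adjusted p = 0.686 over the 12 ratio tests made). With an unadjusted p under 0.05 were 5.56% of the 198 strand ratios in that comparison, and the median difference over all of them was -0.02. For shPum2 against shNTC the difference was -0.39 (exact permutation p = 0.114, adjusted p = 0.686, with an unadjusted p under 0.05 for 3.03% of the 198). For shStau2 against shPum2 it was -0.15 (exact permutation p = 0.371, adjusted p = 0.857, with 4.04% of the 198).

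The strand ratio of miR-211 had a mean of -1.65 ± 0.54 in shNTC, -2.14 ± 0.50 in shStau2 and -1.92 ± 0.56 in shPum2 (log2, SD, n = 4). The differences were -0.50 for shStau2 against shNTC (exact permutation p = 0.257), -0.27 for shPum2 against shNTC (p = 0.543) and -0.23 for shStau2 against shPum2 (p = 0.571), with adjusted p = 0.857 for each. The miR-204 ratio minus the miR-211 ratio of the same library differed between groups by -0.05, -0.12 and 0.07 in the same order (exact permutation p = 0.943, 0.829 and 0.771, adjusted p = 0.943, 0.904 and 0.904). A shift of one gene's strand ratio apart from that of the other was therefore not detectable with 4 libraries a group.

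**Figure D2:**
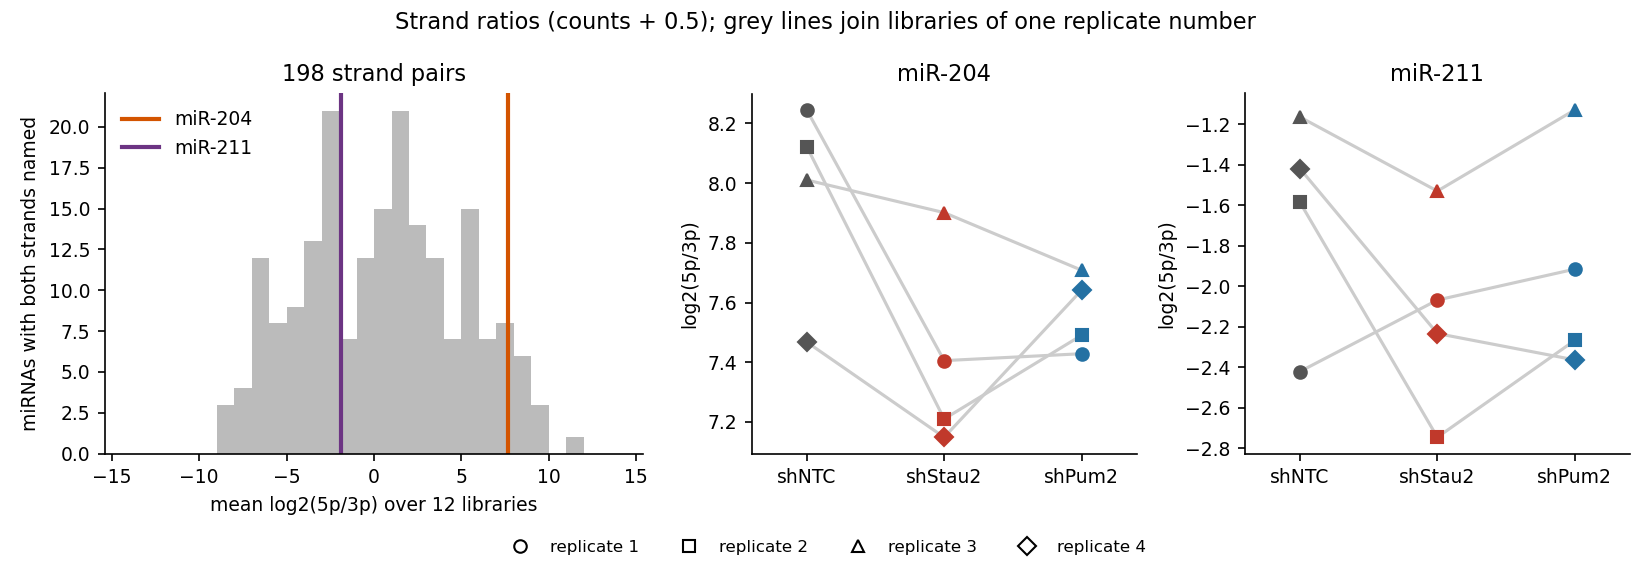
Left, histogram of the mean log2 ratio of 5p to 3p counts over 12 libraries for 198 miRNAs, with miR-204 at 7.65 and miR-211 at -1.90 as lines. Middle and right, the log2 ratio of miR-204 and miR-211 in each library, with grey lines joining libraries of one replicate number and separate axes: for miR-204 each shStau2 library lies below the shNTC library of its number.

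Libraries with the shRNA against Stau2 were first set against those with the non-targeting shRNA. In edgeR's quasi-likelihood test without a block, 0 of the 4 strands passed at an adjusted p of 0.05, where 0.318% of all 628 miRNAs did, and 1 of the 4, miR-204-3p, had an unadjusted p under 0.05, as did 11.3% of all miRNAs. DESeq2 without the block gave an adjusted p to 2 of the 4, miR-204-5p and miR-211-3p, and called neither, while it called 4.29% of the 396 miRNAs with an adjusted p. It gave none to miR-204-3p and miR-211-5p, which it could not call. The miRNA with the smallest p was miR-29a-5p, which fell by 1.31 on the log2 scale (edgeR adjusted p = 0.00423). The log2 fold changes of the 4 strands had a median of 0.28, against 0.00 over all miRNAs tested. The groups overlapped for all 4 strands, whereas 9.55% of all miRNAs had groups that did not overlap.

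With the replicate block 1 of the 4 strands passed in edgeR's test, where 6.21% of all miRNAs did: miR-204-3p rose in shStau2 against shNTC by 0.75 on the log2 scale (SE 0.19, 95% confidence interval 0.35 to 1.16, adjusted p = 0.0255). It was higher in 4 of 4 pairs, a pattern that 16.1% of all 628 miRNAs showed, and 2.39% of them were called higher with the block. An unadjusted p under 0.05 with the block was found for 2 of the 4 strands, miR-204-3p and miR-211-3p, and for 22.5% of all miRNAs. Without the block the value was 0.77 (SE 0.28, edgeR adjusted p = 0.293). The call was close to the threshold. It held with each of 4 scalings, but DESeq2 with the block, which called 6.17% of 567 miRNAs, did not make it (0.73, adjusted p = 0.0997). The call ended in 8 of the 16 fits with the block that left out a library or a replicate number. It held in the fits that left out only a shPum2 library, which is not part of this comparison (edgeR adjusted p = 0.0173 to 0.0287). It ended without shStau2 replicate 2, the highest library (0.59, edgeR adjusted p = 0.171), without shNTC replicate 2 (0.60, adjusted p = 0.164), without shNTC replicate 1 (0.71, adjusted p = 0.0535), and without shStau2 replicate 1 (0.78, adjusted p = 0.0737) or 4 (0.77, adjusted p = 0.0766). It ended as well without replicate number 1 (0.74, edgeR adjusted p = 0.0822), number 2 (0.54, adjusted p = 0.203) or number 4 (0.87, adjusted p = 0.0905). The log2 fold change was 0.54 to 0.60 in the fits without number 2 or its shNTC or shStau2 library, and 0.71 to 0.87 in the other fits that ended the call.

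The other strands did not pass in shStau2 against shNTC. The 3p strand of the paralog, miR-211-3p, had a log2 fold change of 0.38 (SE 0.13, 95% confidence interval 0.11 to 0.64, edgeR adjusted p = 0.0932) with the block and 0.38 (SE 0.20, adjusted p = 0.509) without it, and was higher in 4 of 4 pairs. The guide miR-204-5p had 0.16 with the block (95% confidence interval -0.00 to 0.32, edgeR adjusted p = 0.226) and 0.17 without it (-0.27 to 0.62, adjusted p = 0.824), higher in 3 of 4 pairs. For miR-211-5p the value was -0.12 with the block (-0.58 to 0.35, edgeR adjusted p = 0.829) and without it (-0.62 to 0.38, adjusted p = 0.914). The intervals do not show that these strands stayed at the same level. Summing the near-identical 5p strands to a single feature gave 0.17 without the block (edgeR adjusted p = 0.829) and 0.16 with it (adjusted p = 0.229), within 0.01 of the values of miR-204-5p.

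Markers of other cells were measured in the same libraries. Of the 7 astrocyte marker miRNAs, led by miR-21-5p and miR-24-3p, 4 fell in shStau2 against shNTC with the block in edgeR's test (miR-21-5p, miR-21-3p, miR-23a-3p and miR-27a-3p) and 0 rose, where 3.82% of all miRNAs were called lower. Without the block 0 of the 7 passed in edgeR's test, where 0.318% of all miRNAs did. DESeq2 called 2 lower without the block and 4 lower with it. In either direction it called 4.29% of 396 miRNAs without the block and 6.17% of 567 with it. In shPum2 against shNTC 1 of the 7, miR-23a-3p, fell with the block in edgeR's test, where 0.159% of all miRNAs were called. DESeq2 with the block called 2 of the 7 lower there, miR-21-5p and miR-23a-3p, where it called 0.318% of all miRNAs. Without the block 0 of the 7 passed there in either test. The sum of the list was 9423 to 11765 CPM in the shNTC libraries, 7115 to 8436 CPM in shStau2 and 8285 to 9907 CPM in shPum2. The choroid or ciliated list, 8 strands of miR-34b, miR-34c, miR-449a and miR-449c, miRNAs abundant in multiciliated cells, did not move that way. Its sum was 724 to 2020 CPM in shStau2, 717 to 2006 CPM in shNTC and 933 to 1976 CPM in shPum2, and 0 of its 7 tested members passed in edgeR's test in any comparison, with or without the block. DESeq2 called 1, miR-449c-5p, lower in shStau2 than in shPum2 with the block, where 6 of the 7 had an adjusted p. In that fit it called 6.28% of 494 miRNAs. It called 0 in its other fits, of which that of shStau2 against shNTC without the block gave 4 of the 7 an adjusted p. No member of that list was at 0 in all libraries of a group. Its most abundant members were miR-449a-5p with 485 to 1675 CPM and miR-34c-5p with 87.1 to 279 CPM, and miR-449c-3p did not pass the filter. In the blood or microglia list miR-451-5p, an erythrocyte miRNA, was at 0 counts in the 4 shStau2 libraries. It was near the floor in the other groups too, with 1.41 ± 1.77 CPM in shNTC and 0.68 ± 0.79 CPM in shPum2 (SD, n = 4). At no more than 17 counts a library, it did not pass the filter and was not tested. Of that list 1 of 4 tested members, miR-155-5p, fell in shStau2 against shNTC with the block in edgeR's test, where 3.82% of all miRNAs fell. DESeq2 called it lower with and without the block, at the shares given above. In the vessel or mesenchyme list 1 of 7, miR-126a-5p, fell in that comparison with the block in edgeR's test. DESeq2 called 2 lower with and without the block, miR-126a-3p and miR-126a-5p, at the same shares of all miRNAs. Without the block 0 members of either list passed in edgeR's test, and in the oligodendrocyte list 0 of 4 passed with or without it. In shStau2 against shPum2 edgeR's test with the block called 3.98% of all miRNAs. Among them were 2 of 4 blood or microglia members, lower (miR-142-3p and miR-155-5p), and 1 of 10 neuronal members, higher (miR-7a-5p). DESeq2 called miR-155-5p lower there with and without the block, and with it miR-21-5p, miR-27a-3p and miR-199a-3p too. It called 6.28% of 494 miRNAs with the block and 1.12% of 626 without it. The part of other cells in the miR-204-3p difference was not tested. In these bulk libraries, fewer cells of a type and less of a miRNA per cell cannot be told apart.

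Further lists placed the strands among miRNAs of other tissues. The epithelial list of miR-200a, miR-200b, miR-200c and miR-141, with miR-200c-3p and miR-200b-5p as its most abundant strands, summed to 19.1 to 28.6 CPM over the 12 libraries, and 0 of 7 tested members passed in any comparison in edgeR's fits, blocked or not. DESeq2 called 0 as well, but gave these members no adjusted p in shStau2 against shNTC without the block or in shStau2 against shPum2 with it. In shStau2 against shNTC with the block only 4 of the 7 had an adjusted p. The oligodendrocyte list was led by miR-338-3p and miR-219a-5p, at 258 and 23.0 CPM on average. The blood or microglia list was led by miR-155-5p at 119 CPM and miR-142-3p at 16.4 CPM, and the vessel or mesenchyme list by miR-126a-3p at 388 CPM and miR-143-3p at 131 CPM. With 1540 CPM on average, miR-204-5p was above each member of these 4 lists and above miR-449a-5p, at 1033 CPM. In the astrocyte list miR-21-5p and miR-24-3p were above it, at 2372 and 2317 CPM on average, and the other members below.

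The comparison of shPum2 with shNTC showed no called difference of the 4 strands. In edgeR's test 0 of 4 passed without the block, where 0% of 628 miRNAs did, and 0 of 4 with it, where 0.159% did. None of the 4 had an unadjusted p under 0.05 in either fit, where 1.43% of all miRNAs did without the block and 7.32% with it. DESeq2, which gave all 4 an adjusted p, called 0 of them without the block and 0 with it, where it called 0% and 0.318% of all miRNAs with an adjusted p. The groups overlapped for all 4, as they did for all but 1.11% of the miRNAs. No strand was higher in 4 of 4 pairs, a pattern of 6.37% of the miRNAs. The miRNA with the smallest p without the block, miR-6318, had an edgeR adjusted p = 0.982. With the block the log2 fold change was 0.38 for miR-204-3p (95% confidence interval -0.04 to 0.81, edgeR adjusted p = 0.659), -0.03 for miR-204-5p (-0.19 to 0.13, adjusted p = 0.949), 0.05 for miR-211-3p (-0.22 to 0.32, adjusted p = 0.949) and -0.25 for miR-211-5p (-0.71 to 0.22, adjusted p = 0.792).

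Set against shPum2, whose shRNA also has a target, the shStau2 libraries showed no called strand. In edgeR's test 0 of the 4 strands passed without the block, where 0.478% of all miRNAs did, and 0 of 4 with it, where 3.98% did. DESeq2 called 0 of 4 without the block, where it called 1.12% of 626 miRNAs, and 0 of the 3 to which it gave an adjusted p with the block, where it called 6.28% of 494. It could not call miR-211-5p there. The groups overlapped for all 4, and did not for 4.94% of the miRNAs. With an unadjusted p under 0.05 were 0 of the 4 without the block and 2 with it, miR-204-5p and miR-211-3p, against 9.39% and 19.7% of all miRNAs. With the block the log2 fold change was 0.18 for miR-204-5p (95% confidence interval 0.02 to 0.34, edgeR adjusted p = 0.178), 0.33 for miR-211-3p (0.06 to 0.59, adjusted p = 0.149) and 0.37 for miR-204-3p (-0.02 to 0.76, adjusted p = 0.284). Without shStau2 replicate 2 the value of miR-204-3p was 0.21 with the block and 0.070 without it, against 0.39 in the full fit without the block. All 3 were higher in 4 of 4 pairs, as were 14.0% of all 628 miRNAs. For miR-211-5p it was 0.13 (-0.35 to 0.61, edgeR adjusted p = 0.785), with 2 of 4 pairs higher. The smallest p without the block again belonged to miR-29a-5p, which fell by 1.02 (edgeR adjusted p = 0.0349). The comparisons with shNTC share their control libraries, and both comparisons of shStau2 share the shStau2 libraries.

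**Figure D3:**
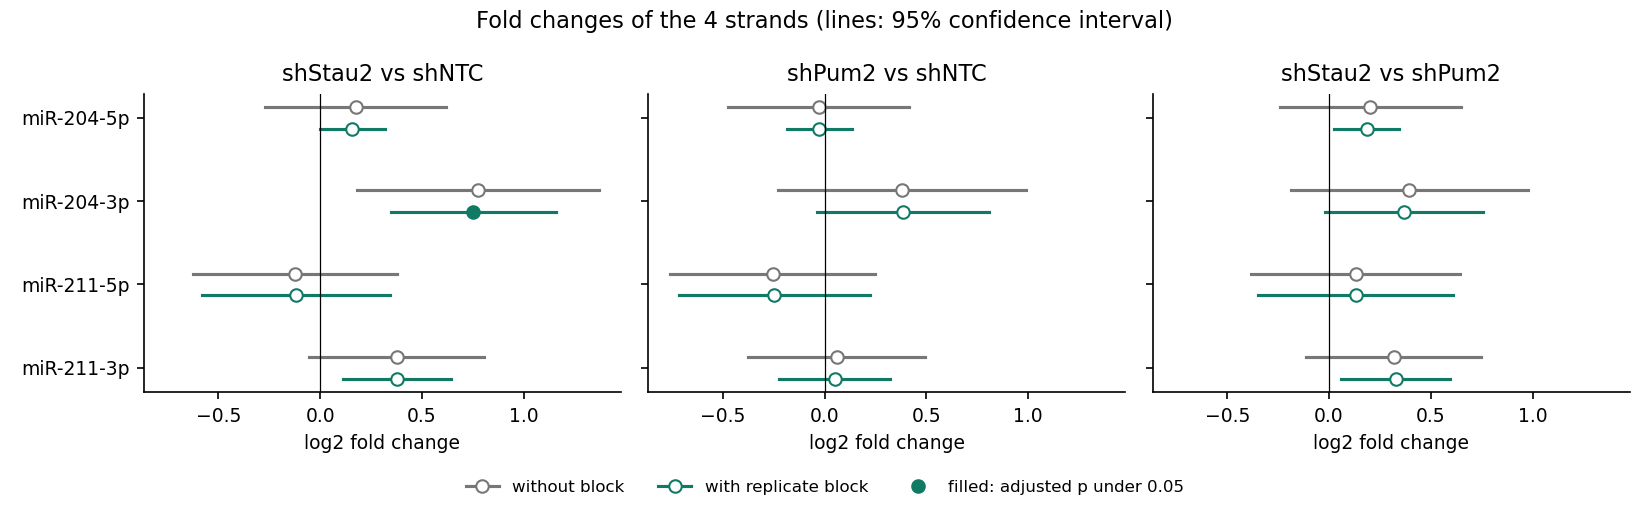
Log2 fold changes of the 4 strands in the 3 comparisons, without (grey) and with (green) the replicate block, with 95% confidence intervals as lines. The filled point, miR-204-3p in shStau2 against shNTC with the block at 0.75, is the one with an edgeR adjusted p under 0.05.

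The paralog ratio of miR-204-5p to miR-211-5p, with 0.5 added to each count, averaged 7.97 ± 0.45 on the log2 scale (SD, n = 12). On the linear scale it ran from 160 to 502. It differed by 0.27 between shStau2 and shNTC (exact permutation p = 0.571), by 0.20 between shPum2 and shNTC (p = 0.514) and by 0.06 between shStau2 and shPum2 (p = 0.829), with adjusted p = 0.857, 0.857 and 0.904. The ratio of 502 belonged to shStau2 replicate 2, where miR-204-5p was at its highest and miR-211-5p at 20 counts.

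The level of miR-204-5p separated libraries of replicate number 2 from the rest, whereas the shRNA groups overlapped. The 3 libraries of number 2, one in each group, held 1893 to 2386 CPM, and the 9 others 1238 to 1573 CPM, a ratio of means of 1.53. Of all 628 miRNAs, 4.78% had the 3 libraries of number 2 above the 9 others. Of the other 3 strands none separated in this way: for number 2 and the other numbers the ranges were 24.9 to 31.8 and 13.3 to 27.0 CPM for miR-211-3p, 6.92 to 16.0 and 4.70 to 9.35 CPM for miR-204-3p, and 4.64 to 8.22 and 4.32 to 7.64 CPM for miR-211-5p. In the choroid or ciliated list 2 of 7 tested members separated, miR-34b-3p and miR-34c-3p, and its sum was 1656 to 2020 CPM in number 2 and 717 to 1976 CPM in the others. No tested member of the epithelial, neuronal, astrocyte, oligodendrocyte or blood lists did, and 1 of 7 in the vessel or mesenchyme list, miR-214-3p.

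The 5 miRNAs most like miR-204-5p over the 12 libraries, by Pearson r of log2 CPM among 446 miRNAs with at least 10 CPM, were miR-1249 (r = 0.89), miR-34b-3p (0.89), miR-1298 (0.89), miR-3552 (0.85) and miR-10b-5p (0.81). All 5 were higher in the libraries of number 2 than in the others. They were picked by r with miR-204-5p over these same 12 libraries, so this rise is not independent of the choice. For miR-1298 the levels were 206 to 313 CPM in number 2 and 38.7 to 63.6 CPM in the others, a ratio of means of 5.36. For miR-34b-3p they were 146 to 173 and 70.8 to 97.8 CPM. The likeness rested on those 3 libraries: over the 9 others r fell to 0.26 for miR-1249, 0.10 for miR-34b-3p, 0.11 for miR-1298, 0.37 for miR-3552 and 0.28 for miR-10b-5p. These r values compare miRNAs measured in the same libraries, which the replicate numbers pair, and carry no p because the miRNAs were ranked by them.

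**Figure D4:**
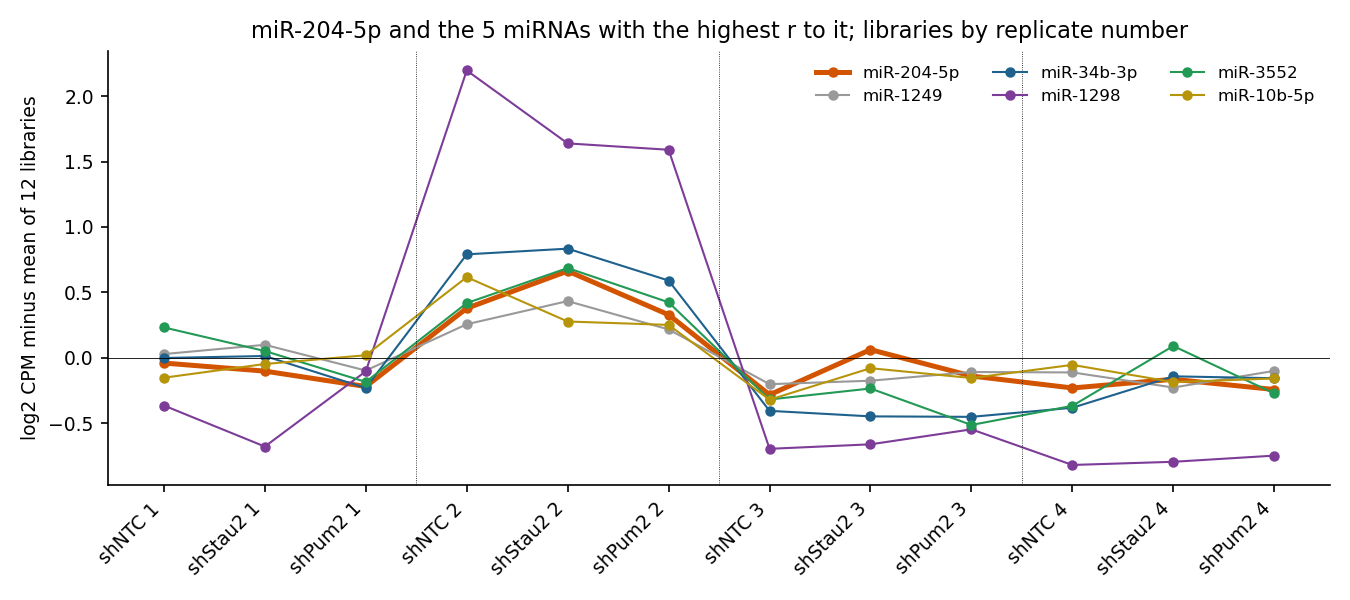
Log2 CPM minus the mean of the 12 libraries for miR-204-5p (thick) and the 5 miRNAs with the highest r to it, with libraries ordered by replicate number and dotted lines between numbers. All 6 lines are raised in the 3 libraries of replicate 2, miR-1298 the most, which the choice by r over these libraries favours.

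The miRNAs most like the other strands were different ones. For miR-211-3p they were miR-185-3p (r = 0.91), miR-23a-5p (0.91), miR-483-3p (0.90), miR-323-5p (0.90) and miR-412-3p (0.89), and without number 2 r was 0.87 to 0.95. For miR-204-3p, at few counts, they were miR-127-5p (0.78), miR-671 (0.77), miR-344b-5p (0.76), miR-3558-5p (0.75) and miR-320-5p (0.75). Without number 2 these fell to 0.58, 0.21, 0.70, 0.46 and 0.43 in the same order. For miR-211-5p they were miR-374-3p (0.72), miR-1843b-5p (0.70), miR-340-5p (0.70), miR-101b-3p (0.67) and miR-3068-3p (0.66), and without number 2 r was 0.58 to 0.66. No list of the 4 strands shared a name with another.

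Whether the strands vary together was asked of all 6 pairs, over all 12 libraries and over the 9 that are not of number 2. The permutation p-values treat libraries as exchangeable and so ignore the pairing by number and the groups. Over 12 libraries miR-204-5p had r = 0.68 with miR-204-3p (permutation p = 0.0159, adjusted p = 0.0956 over 6 pairs, rho 0.50, p = 0.105, adjusted p = 0.209). With miR-211-3p it had r = 0.57 (permutation p = 0.0522, adjusted p = 0.104, rho 0.55, p = 0.0679, adjusted p = 0.204), and with miR-211-5p r = -0.10 (permutation p = 0.760, adjusted p = 0.760, rho -0.04, p = 0.904, adjusted p = 0.904). Number 2 stands apart from the other libraries in miR-204-5p, and the first value rested on it. Over the 9 other libraries r was -0.00 with miR-204-3p (exact permutation p = 0.998, rho 0.23, p = 0.552), 0.25 with miR-211-3p (exact permutation p = 0.514, rho 0.25, p = 0.521) and 0.05 with miR-211-5p (exact permutation p = 0.906, rho -0.03, p = 0.948). Without the 2 of these 9 libraries farthest from the median, r was 0.67, 0.22 and -0.08 in the same order.

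The 3p strands miR-204-3p and miR-211-3p had r = 0.60 over 12 libraries (permutation p = 0.0407, adjusted p = 0.104) and rho = 0.75 (permutation p = 0.00725, adjusted p = 0.0435). Without the 2 libraries farthest from the median of miR-204-3p, r was 0.39, and after subtracting the means of groups and replicate numbers it was -0.55, so the p is not that of a relation within pairs. Over the 9 libraries r was 0.38 (exact permutation p = 0.304, rho 0.57, p = 0.121, adjusted p = 0.723). The 2 strands of miR-211 had r = -0.29 over 12 libraries (permutation p = 0.373, adjusted p = 0.458), rho = -0.20 (p = 0.543, adjusted p = 0.800) and r = -0.25 over the 9 (exact permutation p = 0.522). For miR-204-3p and miR-211-5p the values were r = -0.28 (permutation p = 0.381, adjusted p = 0.458), rho = -0.14 (p = 0.667, adjusted p = 0.800) and r = 0.08 over the 9 (exact permutation p = 0.844). Over the 9 libraries the adjusted p was 0.998 for r in each of the 6 pairs, and no rho had one below 0.723. After subtracting the means of groups and replicate numbers, r of miR-204-5p was 0.03 with miR-204-3p, -0.09 with miR-211-3p and -0.63 with miR-211-5p. It was -0.06 for the 2 strands of miR-211 and -0.10 for miR-204-3p and miR-211-5p, and none of these values carries a p. A replicate number holds 3 libraries, too few for an r within a single number.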

How the data were processed

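The authors deposited raw counts per small RNA, a table for each library. Per the labels' protocols, RNA (integrity number 9.5) was isolated as a batch, and the library kit labels each molecule with a unique identifier. Not given in the sources used here are the aligner, the counter and whether molecules or reads were counted. The submitters' processing notes name Rnor 6.0 as build.

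The counts of 685 miRNA names were fitted with edgeR 4.0.16 in R 4.3.3: TMM scaling, filterByExpr by group (628 names kept, 57 removed), quasi-likelihood test with robust estimation, all 12 libraries in a fit by group, p-values two-sided and Benjamini-Hochberg adjusted over all names tested. Replicate numbers pair the libraries: same-number r was above 0.1 in all 12 pairs. That fit, with the number as a block, DESeq2 1.42.0, other scalings and filters and left-out libraries were alternatives. The code was tested on simulated data. Log2 levels used a prior count of 2. Ratios used counts plus 0.5 and exact permutation tests, and correlations 100000 permutations (exact over 9 libraries).

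The strands and lists were chosen with earlier results of these data known. Named are the 4 strands, the 5 miRNAs most like each strand, and the miRNA with the smallest p per comparison. Members of the choroid or ciliated and epithelial lists are named too, with the 2 most abundant and the called members of each other list. Of the listed miRNAs, miR-200a-5p, miR-429 and miR-144-3p are not analysed here. The values by replicate number 2, the correlations without it and the 198 strand pairs were added after seeing the data.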

Additional observations from a re-analysis of the deposited data

Results flagged for a closer look

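In groups of 4 libraries, the gap of the highest or lowest library to its neighbour was set against the range, for 27 combinations of group and measure, and chance alone marks about 1 in 20. In shPum2, miR-204-5p was at 1893 CPM in replicate 2, and the next library was at 1368 CPM. In shStau2, the log2 ratio of miR-204-5p to miR-211-5p was 8.97 in replicate 2, and the next was 7.90. In shStau2, the log2 strand ratio of miR-204 minus that of miR-211 was 9.96 in replicate 2, and the next was 9.47. All 3 were libraries of replicate number 2, and no cause was tested.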

How the results depend on the processing

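In edgeR's test without the block, 2 miRNAs passed in shStau2 against shNTC, 0 in shPum2 against shNTC and 3 in shStau2 against shPum2. With the replicate block, and again with the near-identical 5p names summed, relative log expression factors, library totals or upper-quartile factors beside it, the counts were 39, 38, 43, 39 and 38 in shStau2 against shNTC, 1, 1, 1, 1 and 1 in shPum2 against shNTC, and 25, 25, 27, 26 and 40 in shStau2 against shPum2. DESeq2 called 17, 0 and 7 miRNAs without the block and 35, 2 and 31 with it. In shStau2 against shPum2, upper-quartile factors alone gave 0 calls, and so did a fit of the 8 libraries of that comparison. Of the 4 strands, the block changed the call in edgeR's test of miR-204-3p in shStau2 against shNTC, to log2 fold changes of 0.75, 0.75, 0.75, 0.69 and 0.76 in the same order of settings, and no other call. Single libraries (chosen as an alternative after seeing the data where the block was used) or replicate numbers were left out in turn, without and then with the block: calls ranged from 1 to 3 and from 5 to 52 in shStau2 against shNTC, 0 to 0 and 0 to 2 in shPum2 against shNTC, and 0 to 4 and 6 to 68 in shStau2 against shPum2. Over both sets of fits, the log2 fold change in shStau2 against shNTC ranged from -0.049 to 0.33 for miR-204-5p, from 0.45 to 0.94 for miR-204-3p and from -0.34 to 0.12 for miR-211-5p. In shPum2 against shNTC it ranged from -0.16 to 0.15 for miR-204-5p and from -0.071 to 0.24 for miR-211-3p, and in shStau2 against shPum2 from -0.019 to 0.33 for miR-204-5p, from 0.070 to 0.56 for miR-204-3p and from -0.0042 to 0.28 for miR-211-5p. Among the ratios, the sign changed on leaving out a library for the paralog ratio in shStau2 against shNTC (-0.033 to 0.45) and against shPum2 (-0.23 to 0.22), for the miR-211 strand ratio in shStau2 against shPum2 (-0.43 to 0.038), and for the strand ratio difference (-0.29 to 0.30, -0.36 to 0.23 and -0.14 to 0.25 in the 3 comparisons). Without replicate number 2, an alternative chosen after seeing the data, r turned from 0.68 to -0.0010 for miR-204-5p and miR-204-3p, from -0.099 to 0.048 for miR-204-5p and miR-211-5p and from -0.28 to 0.077 for miR-204-3p and miR-211-5p. The cause of these changes was not tested. With pairs of the same number, the miR-204 strand ratio in shStau2 against shNTC had the smallest exact sign-flip p that 4 pairs can give, with an adjusted p of 0.75 over the 12 ratio tests. That smallest p lies above the threshold for a call even before adjustment, so the sign-flip test could not call any ratio. It shows only that all 4 pairs went the same way. A filter at a mean of 10 CPM gave no value for miR-204-3p and miR-211-5p. At 20 to 39 counts for miR-211-5p and 24 to 69 for miR-204-3p, counting error limits what these strands can show.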
